A study of Rattus norvegicus with 9 samples.

Results

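Cholesterol synthesis and its control were described in the livers of 9 Wistar rats through 27 genes: the enzymes that build cholesterol from acetyl-CoA, the proteins that sense sterol and set the pace of the pathway, and those that move or esterify sterol. A gene was read from the probe sets that the platform annotation assigns to exactly its symbol, and the probe set with the highest mean signal stood for the gene. Of the 27 genes, 25 had such a probe set, and Hmgcs1 and Soat2 were not analysed here. These 25 had 40 probe sets in all, and they stood among 14217 genes with a probe set of their own. All 25 passed the filter on low signal, as did 10432 genes in all. They were 17 enzymes, 5 sensing and control genes and 3 transport genes.

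The series compared 3 groups of rats, each with 3 livers on a one-colour Affymetrix expression array: rats given the drug 7-P (drug 1, 2 and 3), rats of the model group (model 1, 2 and 3) and control rats (control 1, 2 and 3). Per the labels, 36 rats weighing 180 to 220 g were divided at random into groups of 12, and 3 of each were arrayed. All were labelled male. The labels do not say what made the model, whether the drug rats also went through it, at what dose and for how long 7-P was given, or the animals' age.

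Cholesterol is made in the cytosol and endoplasmic reticulum: acetyl-CoA is turned into mevalonate and isoprenoid units, these are joined to squalene, squalene is closed to lanosterol, and lanosterol is trimmed to cholesterol. The pathway is controlled by SREBP-2, the product of Srebf2, a membrane-bound transcription factor that its escort SCAP carries to the Golgi when sterol is scarce and that INSIG proteins hold back when sterol is plentiful. SREBP-2 then raises nearly all enzymes of the pathway together, often with the CCAAT-binding factor NF-Y beside it on the promoter. The liver is the main site of this regulation, and it also exports sterol into bile through the ABCG5 and ABCG8 half-transporters.

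The labelled tissue was borne out by its markers. All 9 measured hepatocyte genes of a list of 10 lay between 8.43 and 12.95 on the normalized log2 scale, and their summed signal was 32998 to 35734 in drug livers, 32281 to 37708 in model livers and 34901 to 35741 in control livers. The label of sex was not borne out in the same way on every array. Cyp2c11, a steroid hydroxylase that the liver of male rats makes, was at 12.11 in drug 3 and 11.28 in control 2, against 2.87 to 5.22 in the other 7 arrays. Xist, the noncoding RNA behind X inactivation in females, was at 3.05 and 2.65 in these arrays and at 8.06 to 10.89 in the others, and the Y-linked Eif2s3y was at 7.17 and 6.99 against at most 2.53, though Eif2s3y did not pass the filter on low signal. Uty, another Y-linked gene of the list, passed it and ran the other way, at 5.71 in drug 3 and 6.19 in control 2, against 6.54 to 6.80 in the other 7. These 7 arrays, although labelled male, thus had high Xist and low Cyp2c11. The medians over the genes, and the differences that rest on drug 3 or control 2, are given with and without these arrays. RNA quality also differed. The ratio of 3' to 5' signal at Gapdh control probe sets came to 1.31, 9.20 and 8.71 in drug 1, 2 and 3, 4.09, 12.7 and 9.77 in model 1, 2 and 3, and 1.52, 3.14 and 3.07 in control 1, 2 and 3.

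The 25 genes shared a low signal in 1 drug liver. In drug 3, 23 of 25 genes lay below their own mean over the 9 arrays, with a median deviation of -1.27 on the log2 scale, and 18 had their lowest signal there. Of all genes tested, 11.2% had their lowest signal in drug 3, and 48.8% lay below their mean. Control 2 came next, with 21 of 25 genes below their mean and a median deviation of -0.51. In the other 7 arrays the median deviation of the 25 genes was positive, at 0.42 in drug 1, 0.48 in drug 2, between 0.23 and 0.38 in the model livers, and at 0.16 and 0.20 in control 1 and control 3. Both low arrays are those with high Cyp2c11 and low Xist.

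**Figure D1:**
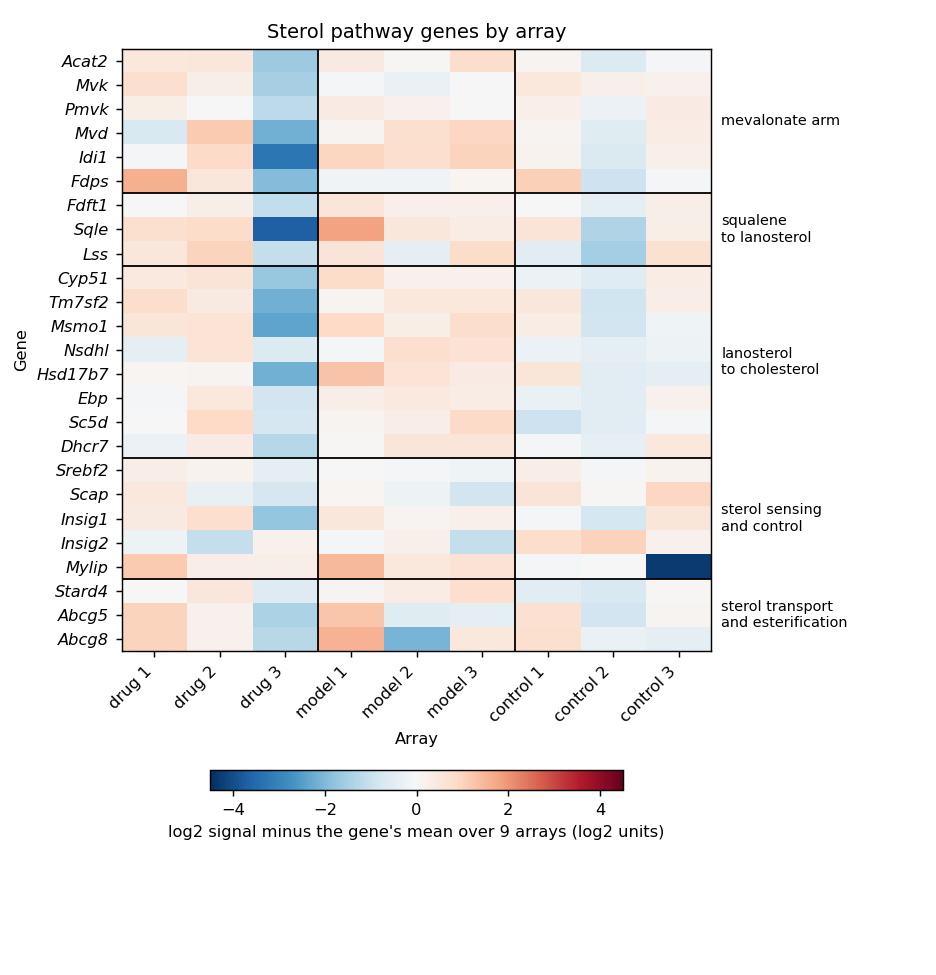
Each cell is the normalized log2 signal of a gene in an array minus the gene's mean over the 9 arrays, in log2 units, with drug, model and control arrays from left to right and genes grouped by role from top to bottom. The column of drug 3 is blue for 23 of the 25 genes and that of control 2 for 21, and Mylip in control 3 is another dark cell.

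The 17 enzymes had this pattern most fully, and most of the 8 control and transport genes shared the drop in drug 3. All 17 were lower in drug 3 than in drug 1 and drug 2, where 27.3% of all genes were, and all 17 were lower than in every model liver (25.2% of all genes). The drop from the mean of drug 1 and 2 to drug 3 had a median of -2.13 over the enzymes and of 0.03 over all genes tested, and it was past 1 log2 unit in 16 enzymes, against 6.01% of all genes. Of the 17, 15 were also lower in control 2 than in control 1 and control 3 (33.5% of all genes), with a median difference of -0.59. In 14 enzymes drug 3 and control 2 were the lowest arrays of all 9, a placing that 3.27% of all genes had. It was 10 enzymes with median centring (3.16% of all genes), 14 with trimmed mean scaling (3.38%) and 16 with no normalization (13.5%). With quantile normalization the exceptions were Mvk, Mvd and Sc5d. Of the 8 control and transport genes, 7 were lower in drug 3 than in drug 1 and drug 2. In 3 of the 8, drug 3 and control 2 were the lowest arrays of all 9. From the mean of drug 1 and 2 to drug 3, the median drop was -1.86 over the 3 transport genes. It was -0.65 over the 5 sensing and control genes. These counts were chosen after the values were seen.

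The drop in drug 3 was deepest for Sqle and Idi1 among the 17 enzymes. Sqle, squalene epoxidase, an oxygen-using early step that is a known point of control, had normalized log2 signals of 7.48, 7.59 and 3.08 in drug 1, 2 and 3, 8.55, 7.25 and 7.08 in model 1, 2 and 3, and 7.35, 5.40 and 7.00 in control 1, 2 and 3. Drug 3 stood far below drug 1 and drug 2, and control 2 was the next lowest. In the deposited linear signal, Sqle was at 139 in drug 2 and 7.11 in drug 3, arrays with near-equal trimmed means of 33.9 and 33.5. The normalized value of Sqle in drug 3 was close to the filter on low signal, a log2 value of 2.82, so no fold against it is given. Idi1, the isomerase that makes the reactive isoprenoid unit, had normalized log2 signals of 9.12, 10.09 and 5.98 in drug 1, 2 and 3, 10.20, 9.98 and 10.22 in model 1, 2 and 3, and 9.38, 8.58 and 9.45 in control 1, 2 and 3. All 3 model livers lay above all 3 control livers, and drug 3 lay 12.3-fold below the mean of drug 1 and drug 2 on the normalized scale. The same fold was 8.07 for Fdps, which makes farnesyl diphosphate, 7.84 for Msmo1, which oxidises the methyl groups of the sterol ring, and 1.62 for Nsdhl.

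The bases upstream of 4 of these genes are printed because they moved together across arrays and hold a CCAAT box, the NF-Y site that often accompanies SREBP-2 on promoters of the pathway. They are the 250 bases before the RefSeq gene start in the rat assembly GRCr8, 5′ to 3′ on the gene's strand, with CCAAT or its reverse complement ATTGG in capitals, and the genes were chosen after their values were seen.
Idi1, chr17:66547525-66547774 (minus strand): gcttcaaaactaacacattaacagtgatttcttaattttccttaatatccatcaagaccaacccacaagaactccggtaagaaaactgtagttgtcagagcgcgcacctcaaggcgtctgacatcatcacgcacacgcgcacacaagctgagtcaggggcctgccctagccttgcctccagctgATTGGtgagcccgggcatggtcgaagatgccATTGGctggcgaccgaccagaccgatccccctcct
Hsd17b7, chr13:84722755-84723004 (minus strand): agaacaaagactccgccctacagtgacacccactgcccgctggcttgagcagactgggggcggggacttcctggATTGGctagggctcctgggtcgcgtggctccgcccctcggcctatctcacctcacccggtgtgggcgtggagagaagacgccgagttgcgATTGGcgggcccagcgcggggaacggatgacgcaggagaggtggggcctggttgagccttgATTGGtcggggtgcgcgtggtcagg
Msmo1, chr16:29746863-29747112 (plus strand): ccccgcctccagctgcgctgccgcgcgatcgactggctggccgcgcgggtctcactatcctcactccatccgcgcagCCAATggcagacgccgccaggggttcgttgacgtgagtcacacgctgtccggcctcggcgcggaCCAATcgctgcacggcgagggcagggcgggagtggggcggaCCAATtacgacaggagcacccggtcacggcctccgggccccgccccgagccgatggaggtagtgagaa
Insig1, chr4:8057770-8058019 (minus strand): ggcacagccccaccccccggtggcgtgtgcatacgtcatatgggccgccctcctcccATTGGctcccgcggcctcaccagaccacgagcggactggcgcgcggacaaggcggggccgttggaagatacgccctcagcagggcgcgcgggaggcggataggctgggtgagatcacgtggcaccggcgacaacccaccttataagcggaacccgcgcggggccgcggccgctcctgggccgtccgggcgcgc
Of the 25 genes, 21 had an upstream window in the RefSeq table. CCAAT, searched on both strands, was found in 17 of these 21 (81.0%), against 34.3% of 27457 rat windows of the same length and 35.9% of the 8728 windows of genes tested. The windows without it were those of Acat2, Cyp51, Dhcr7 and Scap. For these genes drug 3 minus the mean of the other arrays was -1.86, -1.93, -1.43 and -0.84. It was 0.21 for Insig2 and 0.31 for Mylip, which hold the box, and -0.67 and -1.68 for Nsdhl and Mvk, each with 5 copies. Whether the box had a part in the low signals was not tested. The windows of Abcg5 and Abcg8, neighbours that face away from each other, overlap and share bases. The 9-letter form TCACNCCAC of the sterol regulatory element, on both strands, was in 0 of the 21 windows and in 0.976% of the 27457. These are matches of letters in a window and not measured binding sites.

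In the comparison of drug with model livers, which sets rats given 7-P beside rats of the model group, the sterol genes were mostly lower in drug livers, and drug 3 set that difference. No probe set passed an adjusted p of 0.05 in limma (percent called 0), while 610 of 18625 had an unadjusted p under 0.05 (3.28%). Of the 25 genes, 21 had a negative difference, drug minus model, against 52.9% of all genes, and 4 had a positive one, against 47.1%. The median difference was -0.49 on the log2 scale over the 25 genes and -0.03 over all genes tested. Without drug 3 the median was -0.05, with 13 genes lower and 12 higher. It was -0.84 without drug 2, whose sterol genes were high. With array weights it was -0.82, with 24 genes lower. With a term in the fit for drug 3 and control 2 it was -0.19. With the log2 Gapdh ratio as a term it was -0.68, with 24 genes lower. Without drug 1 it was -0.71, with all 25 lower.

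Hsd17b7, a ketosteroid reductase late in the pathway, was the gene with groups that did not overlap, 1 of 25, where 5.05% of all genes were lower in drug livers with no overlap. It had normalized log2 signals of 7.91, 7.94 and 5.65 in drug 1, 2 and 3, 9.09, 8.44 and 8.18 in model 1, 2 and 3, and 8.35, 7.34 and 7.40 in control 1, 2 and 3. All 3 drug livers lay below all 3 model livers, with drug 3 furthest down. The difference, drug minus model, was -1.40 (SE 0.579), with an unadjusted limma p of 0.0359 and an adjusted limma p of 0.998, and it was -0.64 without drug 3. A second probe set of Hsd17b7, also past the filter, had a difference of -0.498. Its groups overlapped, with drug 1 and drug 2 above model 2 and model 3, which were at 4.55 and 4.48. With the mean of the gene's probe sets the difference was -0.95. By its chosen probe set, Hsd17b7 was the only gene of the 25 with an unadjusted p under 0.05 in this comparison. Of all genes, 1.98% were lower at that threshold. With array weights 11 of the 25 had such a p, and without drug 2 it was 7. None of the 25 was higher at it, where 1.46% of all genes were, or higher with no overlap, where 3.36% were.

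Without drug 3 the difference was smaller in size in 14 of the 17 enzymes and turned sign in 6. It grew in 3, to 1.12 for Fdps, 0.61 for Mvk and 0.43 for Lss, against 0.11, -0.05 and -0.18 with all arrays. The difference, drug minus model, was -1.74 (SE 0.821) for Idi1 with all arrays and -0.53 without drug 3. For Sqle, whose value in drug 3 was near the filter, it was -1.58 (SE 1.07), -1.11 with an offset of 16 signal units, and -0.09 without drug 3. Msmo1 had -1.06 (SE 0.695), and -0.07 without it. Mvd, the decarboxylase that ends the mevalonate stage, had -1.15 (SE 0.681), and -0.35 without it. Dhcr7, the reductase of the last step to cholesterol, had -0.78 (SE 0.392), and -0.34 without it. None of these passed the test: adjusted limma p-values of the 25 genes ran from 0.998 to 1.0.

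**Figure D2:**
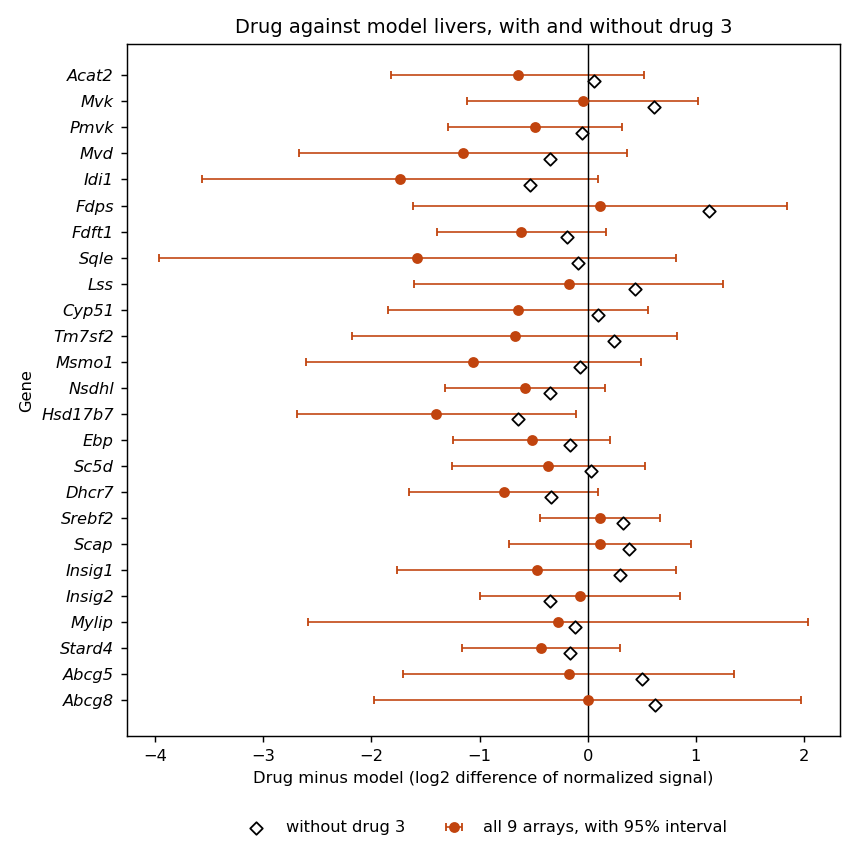
The log2 difference, drug minus model, is shown for each of the 25 genes, as a circle with its 95% interval from the fit on all 9 arrays and as a diamond for the fit without drug 3. Most circles lie left of 0, with a median of -0.49, and the diamonds scatter about 0, with a median of -0.05.

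By stage, the median difference, drug minus model, was -0.57 over the 6 measured genes of the mevalonate arm, -0.61 over the 3 from squalene to lanosterol, and -0.66 over the 8 from lanosterol to cholesterol. It was -0.07 over the 5 sensing and control genes and -0.17 over the 3 transport genes. Without drug 3 these medians were 0.0038, -0.09, -0.12, 0.30 and 0.50 in the same order of stages. The drug livers also varied more among themselves in these genes. With all arrays, the median SD of the 17 enzymes was 1.23 log2 units in drug livers, 0.33 in model livers and 0.45 in control livers (n = 3 each), beside 0.43, 0.37 and 0.31 over all genes tested. With 3 arrays a group, the half-width of the 95% interval of a difference ran from 0.55 to 2.39 log2 units over the 25 genes and 3 comparisons, so smaller differences could not be shown.

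Drug 1 and drug 2, taken by their values, did not sit low. In 17 of the 25 genes both lay above the mean of the control livers, which held for 25.5% of all genes. That mean includes control 2, which was low in most of these genes. Fdps, Fdft1, Tm7sf2, Ebp, Srebf2 and Abcg5 met this rule, but not against the mean of control 1 and control 3. In 7 of the 25 both lay within the range of the model livers, as in 23.6% of all genes. Fdps had normalized log2 signals of 11.42, 10.34 and 7.87 in drug 1, 2 and 3, 9.67, 9.69 and 9.93 in model 1, 2 and 3, and 10.90, 8.92 and 9.79 in control 1, 2 and 3. It was higher in drug 1 and drug 2 than in every model liver and lowest in drug 3. Tm7sf2, a sterol reductase, and Cyp51, the lanosterol demethylase, were at 10.33, 9.94 and 7.37 and at 10.65, 10.79 and 8.51 in drug 1, 2 and 3. In both genes drug 3 stood apart from the other drug livers.

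The remaining enzymes are given by their range over the 9 arrays. Acat2, the cytosolic thiolase that opens the pathway, ranged from 5.17 to 7.61, and Mvk and Pmvk, the kinases that phosphorylate mevalonate, from 4.57 to 6.78 and from 6.51 to 8.06. Fdft1, squalene synthase, ranged from 7.99 to 9.65, and Lss, which closes squalene epoxide to lanosterol, from 5.31 to 7.82. Ebp, a sterol isomerase, ranged from 8.75 to 10.11. Drug 3 was the lowest array for Acat2, Mvk, Pmvk, Fdft1 and Ebp, and control 2 for Lss.

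The comparison of model with control livers asks what the model changed. With quantile normalization the enzymes were mostly higher in model livers, with no gene past the test. No probe set passed an adjusted p of 0.05 in limma (percent called 0), and 2245 of 18625 had an unadjusted p under 0.05 (12.1%). Of the 25 genes, 19 had a positive difference, model minus control, against 51.1% of all genes, and 6 a negative one, against 48.9%. The median was 0.56 against 0.01 over all genes tested. Without control 2 the median was 0.24, with 16 genes higher and 9 lower. With a term for drug 3 and control 2 it was 0.10. All 3 model livers had larger Gapdh ratios than all 3 control livers, and with the log2 Gapdh ratio as a term in the fit the median was 0.86. At beta-actin control probe sets the ratio of 3' to 5' signal overlapped between these groups. It was 12.8, 10.7 and 7.31 in model 1, 2 and 3, and 4.23, 8.41 and 7.59 in control 1, 2 and 3. By stage, the median difference, model minus control, was 0.35 over the mevalonate arm, with 4 of 6 genes positive, 0.78 over the 3 genes from squalene to lanosterol and 0.66 over the 8 from lanosterol to cholesterol, with every gene of both stages positive. It was -0.22 over the 5 sensing and control genes and 0.10 over the 3 transport genes. Without control 2 these medians were 0.14, 0.24, 0.50, -0.32 and -0.18 in the same order of stages.

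The size of this shift also depended on how arrays were scaled. Median centring of the arrays gave a member median of 0.02 against -0.07 over all probe sets, and scaling to the trimmed mean gave 0.25 against 0.16. With no normalization between arrays it was -0.31 against -0.40, so its sign turned. These scalings move all probe sets of an array alike, so by construction the 25 genes lay 0.09 above all probe sets in each. With quantile normalization they lay 0.55 above. Positive differences were found in 14 of the 25 genes with median centring, 20 with the trimmed mean, 10 with no normalization and 19 with quantile normalization. For drug minus model the same scalings kept the sign, with member medians of -0.31, -0.39 and -0.27. For drug minus control they were larger in size than the -0.11 of quantile normalization, at -0.41, -0.27 and -0.70. Over all probe sets these medians were -0.07, 0.08 and -0.36. The 25 genes thus lay 0.34 below all probe sets in each, again by construction, and 0.09 below with quantile normalization.

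By the chosen probe sets, groups did not overlap in 6 genes that were higher in model livers (12.9% of all genes). They were Idi1, Nsdhl, Ebp, Sc5d, Mylip and Stard4. The other probe sets of Nsdhl, Sc5d and Stard4 did not place every model liver above every control liver. With control 2 left aside, 6 of the 25 genes were higher in every model liver than in control 1 and control 3, as were 17.5% of all genes. In 1 gene, Mvk, the mevalonate kinase, every model liver lay below every control liver, as in 11.9% of all genes. At an unadjusted p under 0.05, 3 of the 25 genes were higher (7.08% of all genes) and 2 lower (6.05%).  The lowest adjusted limma p of the 25 was 0.406.

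Nsdhl, which removes a methyl carbon from the sterol ring, had normalized log2 signals of 9.51, 10.52 and 9.31 in drug 1, 2 and 3, 9.84, 10.67 and 10.56 in model 1, 2 and 3, and 9.64, 9.48 and 9.68 in control 1, 2 and 3. The difference, model minus control, was 0.76 (SE 0.333), with an adjusted limma p of 0.412, and it was -0.11 with no normalization between arrays. Drug 3 lay close to drug 1, and model 1 close to the control livers. Sc5d, the sterol desaturase before the last step, had normalized log2 signals of 10.02, 10.91 and 9.27 in drug 1, 2 and 3, 10.12, 10.29 and 10.87 in model 1, 2 and 3, and 9.09, 9.55 and 9.95 in control 1, 2 and 3. Its difference, model minus control, was 0.90 (SE 0.402), with an adjusted limma p of 0.414. The other Sc5d probe sets, both past the filter, gave -0.15 and 0.01, and the mean over its probe sets gave 0.25. It is an enzyme with control 1, not control 2, at the bottom of the control livers. Stard4, a soluble carrier that shuttles cholesterol between membranes, had normalized log2 signals of 7.02, 7.51 and 6.44 in drug 1, 2 and 3, 7.15, 7.35 and 7.77 in model 1, 2 and 3, and 6.52, 6.32 and 7.06 in control 1, 2 and 3. Every model liver lay above every control liver, and the difference was 0.79 (SE 0.328), with an adjusted limma p of 0.406. Without control 2 the difference, model minus control, was 0.70 for Nsdhl, 0.91 for Sc5d and 0.63 for Stard4. With no normalization it was 0.05 for Sc5d and 0.26 for Stard4. With the log2 Gapdh ratio as a term it was 0.40 for Nsdhl, and with the mean of its probe sets 0.51 for Stard4. The other Stard4 probe sets, both past the filter, gave 1.12 and -0.39. A second Nsdhl probe set, also past the filter, gave 0.35. In it model 1, at 9.37, lay below the control livers, at 9.49 to 9.60.

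**Figure D3:**
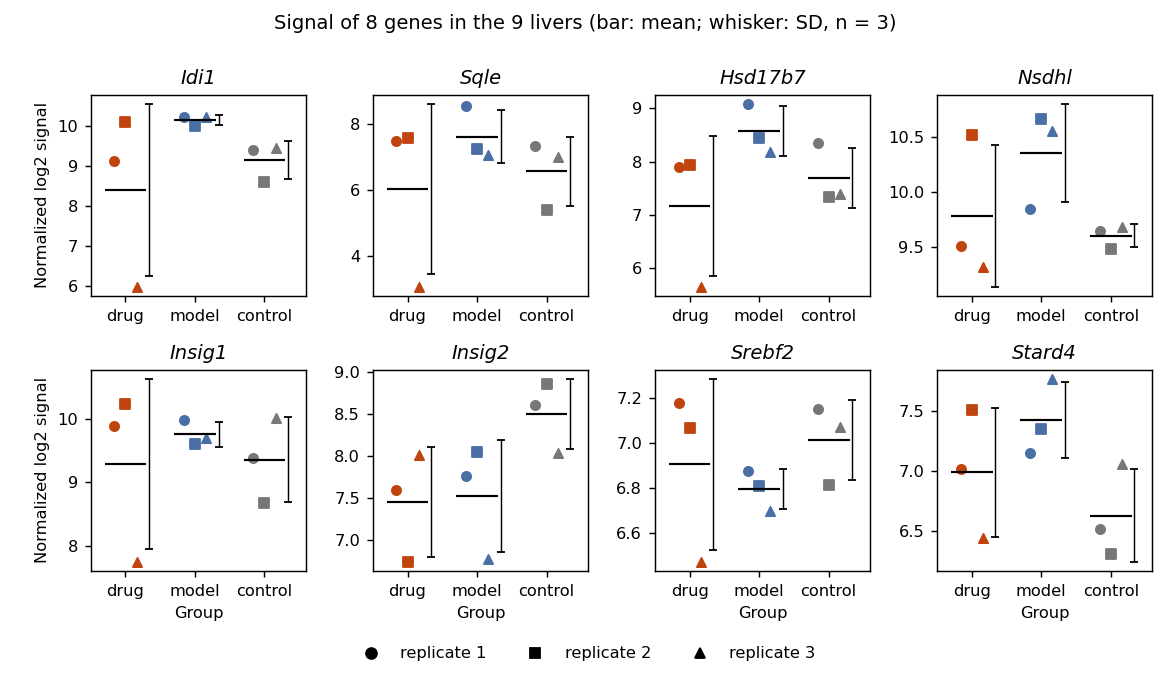
Normalized log2 signal of 8 genes is plotted by group, drug, model and control from left to right, with a point for each replicate, a bar for the mean and a whisker for the SD (n = 3). Drug 3 is the lowest point for Idi1, Sqle and Hsd17b7. For Insig2, by its chosen probe set, drug 3 is the highest drug point and control 2 the highest of all.

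Among the control genes, Srebf2 itself differed little. Its normalized log2 signals were 7.18, 7.06 and 6.47 in drug 1, 2 and 3, 6.87, 6.81 and 6.70 in model 1, 2 and 3, and 7.15, 6.81 and 7.07 in control 1, 2 and 3, a range of under 1 log2 unit over 9 arrays. Scap, the escort that carries SREBPs to the Golgi, was at 6.98, 6.18 and 5.77 in drug 1, 2 and 3, 6.61, 6.28 and 5.71 in model 1, 2 and 3, and 7.11, 6.59 and 7.46 in control 1, 2 and 3. It was lower in model livers, with model minus control at -0.85 (SE 0.377) and an adjusted limma p of 0.413, though model 1 overlapped the control livers. This difference was -0.29 with the log2 Gapdh ratio as a term, and -1.08 without control 2. Insig1, the INSIG gene that SREBPs themselves induce, was at 9.89, 10.23 and 7.75 in drug 1, 2 and 3, 9.98, 9.60 and 9.71 in model 1, 2 and 3, and 9.39, 8.67 and 10.02 in control 1, 2 and 3. It followed the enzymes: drug 3 was lowest and control 2 next.

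Insig2 is the other INSIG gene, which retains SREBPs in the endoplasmic reticulum and does not depend on SREBP for its expression. By its chosen probe set it ran opposite to Insig1 in drug 3 and control 2. Its normalized log2 signals were 7.60, 6.74 and 8.01 in drug 1, 2 and 3, 7.76, 8.04 and 6.77 in model 1, 2 and 3, and 8.61, 8.85 and 8.03 in control 1, 2 and 3. In that probe set control 2 was the highest array and drug 3 the highest drug liver. The difference, drug minus control, was -1.05 (SE 0.416), with an unadjusted limma p of 0.0303 and an adjusted limma p of 0.683, and -1.33 without drug 3. Model minus control was -0.98 (SE 0.416), with an adjusted limma p of 0.409, -0.80 without control 2 and -1.61 with no normalization. These comparisons share the control livers. A second probe set of Insig2 had differences of -0.54 for drug minus control and -1.09 for model minus control. Its highest array was control 1, at 8.90, with control 2 at 8.23. The highest drug liver in it was drug 1, at 8.31, with drug 3 at 8.12. Both lay above control 3, at 7.63, so drug and control livers overlapped. In the deposited linear signal, Insig2 was at 81.5 in drug 2 and 183 in drug 3, where Insig1 was at 783 and 155.

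Mylip, a ubiquitin ligase that marks lipoprotein receptors for degradation and is induced by oxysterol-sensing receptors, was at 4.25, 3.36 and 3.34 in drug 1, 2 and 3, 4.52, 3.55 and 3.70 in model 1, 2 and 3, and 3.02, 3.08 and -1.26 in control 1, 2 and 3. Its difference, model minus control, was 2.31 (SE 1.04), with an adjusted limma p of 0.414, 0.87 without control 3, and 0.57 with an offset of 16 signal units. In control 3 its deposited signal was 0.69, so the size of the difference rests on a value at the bottom of the scale. The exporter genes Abcg5 and Abcg8 ranged from 3.45 to 6.14 and from 1.77 to 5.44 over the 9 arrays. Abcg5 was lowest in drug 3, as most enzymes were, and Abcg8 was lowest in model 2. Drug 3 was the lowest drug liver for Abcg8 too, at 2.61 against 4.88 and 4.07 in drug 1 and drug 2.

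Drug minus control had a member median of -0.11 against -0.03 over all genes, with 18 of 25 genes negative where 52.2% of all genes were, and 7 positive where 47.8% were. No probe set passed an adjusted p of 0.05 in limma (percent called 0), and 1345 had an unadjusted p under 0.05 (7.22%). At an unadjusted p under 0.05 only Insig2 of the 25 was lower (3.58% of all genes) and none was higher (4.6%). Insig2 was also the only one lower with no overlap (7.72%). That rests on its chosen probe set, with drug 3 at 8.01 and control 3 at 8.03, and the second probe set overlapped. Mylip was the only one higher with no overlap (6.51%). Leaving out drug 3 turned the sign of the median: it was 0.60 without drug 3, -0.47 without control 2 and 0.25 without both, with 21 genes higher and 4 lower. With the log2 Gapdh ratio as a term it was also positive, at 0.12, with 15 genes higher and 10 lower. Without drug 1 it was -0.47, without drug 2 -0.48 and without control 1 -0.04.

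**Figure D4:**
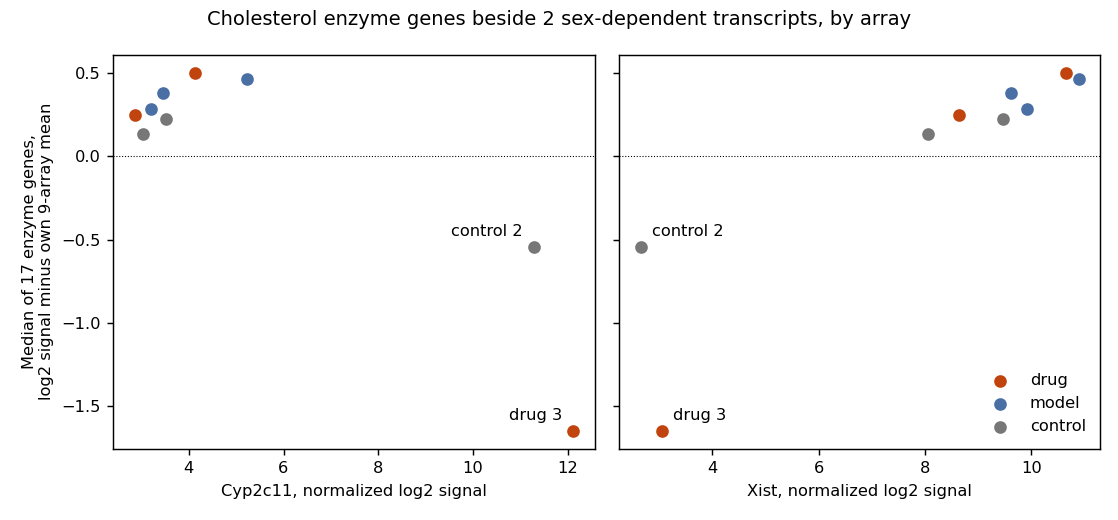
For each of the 9 arrays, the median deviation of the 17 enzyme genes from their own means (log2 units) is plotted against the normalized log2 signals of Cyp2c11 and of Xist. Drug 3 and control 2, at -1.65 and -0.55, lie apart from the other 7 arrays, with high Cyp2c11 and low Xist.

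Across the 9 arrays the enzymes' median deviation was 0.25, 0.50 and -1.65 in drug 1, 2 and 3, 0.38, 0.28 and 0.46 in model 1, 2 and 3, and 0.14, -0.55 and 0.22 in control 1, 2 and 3. Cyp2c12, a female-specific hydroxylase of rat liver, was at 8.19 in drug 3 and 5.82 in control 2, against 11.86 to 12.37 in the other 7. Whether the difference in sex-linked transcripts had a part in the low sterol genes was not tested. Other values that moved across arrays were the macrophage markers, 8 of 10 measured, with a summed signal of 1078 to 2223 in drug livers, 1273 to 2728 in model livers and 635 to 1328 in control livers. The neutrophil markers, 4 of 6 measured, summed to 133 to 1463 in drug livers, 433 to 2067 in model livers and 114 to 325 in control livers. The erythroid markers, 4 of 6 measured, summed to 353 to 2060 in drug livers and 438 to 2300 in model livers. In control livers they summed to 1195 to 2729. Their lowest sum was in drug 3, where Hbb and Ahsp, but not Alas2 and Slc4a1, had their lowest signal. The sinusoidal endothelium markers, 5 of 7 measured, summed to 445 to 513 in drug livers, 689 to 1019 in model livers and 595 to 667 in control livers. These sums did not overlap between groups, but no single gene of the list kept all groups apart. With no overlap, drug livers lay below model livers in Stab2, Lyve1, Gpr182 and Pecam1 (5.05% of all genes) and not in Kdr. Model livers lay so above control livers in Stab2 and Lyve1 only (12.9%), and drug livers so below control livers in Gpr182 only (7.72%). The adipocyte markers were all 5 measured, with 2 past the filter. They summed to 172 to 236 in drug livers, 252 to 268 in model livers and 250 to 277 in control livers. These sums were lowest in drug livers, but the single genes did not all follow. Cidec and Cfd, the 2 past the filter, each overlapped between drug and model livers. Drug livers lay below control livers with no overlap in Cidec and not in Cfd. Of those under the filter, Adipoq and Lep had higher means in drug than in model livers, and Plin1 a lower one. The part of these cell types in the sterol results was not tested. In whole liver, fewer cells of a type and less RNA per cell cannot be told apart.

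Of 15 further probe sets for 12 of the 25 genes, 13 passed the filter on low signal. In 10 of these 13 the lowest array was drug 3, and 10 had the sign of the gene's chosen probe set in drug minus model. In model minus control 9 of 13 did.

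Of a second list of 25 genes of sterol uptake, storage, export and regulation, 18 had a probe set and 17 passed the filter. Their medians were -0.15 for drug minus model, with 5 genes higher and 12 lower, 0.02 for model minus control, with 10 higher and 7 lower, and -0.18 for drug minus control, with 7 higher and 10 lower. None passed the adjusted test in either direction. Srebf1, whose products drive fatty acid synthesis, was at 9.35, 9.63 and 10.75 in drug 1, 2 and 3, 8.19, 8.62 and 9.07 in model 1, 2 and 3, and 8.48, 8.95 and 9.17 in control 1, 2 and 3. It was higher in every drug liver than in every model liver, opposite to the cholesterol enzymes: drug minus model was 1.28 (SE 0.379), with an adjusted limma p of 0.998, and 0.86 without drug 3. Its difference from control livers was 1.04 (SE 0.379), 0.62 without drug 3 and 0.43 with no normalization.

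The other genes of that list with an unadjusted limma p under 0.05 had it in model minus control, and Stard5 had it in drug minus control too. In model minus control, 2 of the 17 were higher at that threshold (7.08% of all genes) and 2 lower (6.05%). Mbtps2, the membrane protease that makes the final cut in SREBPs, had model minus control at 0.60 (SE 0.256), with an adjusted limma p of 0.409. Nceh1, a cholesterol ester hydrolase, had 1.06 (SE 0.429), with an adjusted limma p of 0.401, and 1.49 without control 2. Nr1h2, an oxysterol-sensing nuclear receptor, had -0.92 (SE 0.348), with an adjusted limma p of 0.395, but -0.25 with the log2 Gapdh ratio as a term. Stard5, a sterol carrier related to Stard4, had -0.50 (SE 0.217) for model minus control and -0.76 (SE 0.217) for drug minus control, with adjusted limma p-values of 0.41 and 0.676. None of these 4 passed the test. For Nceh1, drug minus control was 0.93 (SE 0.429). Without control 2, model minus control was 0.49 for Mbtps2, -1.07 for Nr1h2 and -0.55 for Stard5, and with no normalization it was 0.25 for Mbtps2, 0.70 for Nceh1 and -1.09 for Stard5. Aacs, which activates acetoacetate for sterol synthesis, is named after its values were seen, with normalized log2 signals of 6.41, 6.80 and 0.94 in drug 1, 2 and 3, 5.18, 5.92 and 6.11 in model 1, 2 and 3, and 5.79, 3.04 and 6.10 in control 1, 2 and 3. It had the array order of the enzymes, with drug 3 lowest and control 2 next.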

How the data were processed

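Liver RNA of 9 rats was measured on 9 arrays, 3 each of drug, model and control rats. The deposited table holds the authors' linear signal intensity per probe set, made with GCOS 1.2 per the submitters' processing notes, and its values were not scaled between arrays. Trimmed mean signals ran from 33.5 to 81.0 per array. Intensities were taken to log2 and quantile normalized. The 57 control probe sets were left out, and of 31042 others the 18625 at or above the 40th percentile of mean log2 signal were tested with limma 3.58.1 in R 4.3.3 (lmFit, eBayes with trend, all 9 arrays in 1 fit, Benjamini-Hochberg over all). The steps were tested on simulated data. Of the 31042 probe sets, 20826 carry 1 gene symbol, 436 several and 9780 none, and a gene was named only from the first kind. Upstream sequences are RefSeq's, assembly GRCr8.

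The genes, lists and comparisons were chosen with earlier results of these data known, so no p is given for a list. Every array is printed for genes with an unadjusted p under 0.05 in a comparison or groups that did not overlap between drug and model, and for Srebf2, Scap, Insig1 and Insig2. Array values of Sqle, Idi1, Fdps, Tm7sf2, Cyp51, Mylip and Aacs were added after they were seen. Of the second list, genes with an unadjusted p under 0.05 were named. Upstream sequence was to be shown for genes with TCACNCCAC, and none had it. Alternatives changed the scaling, filter, offset, probe set rule, weights, terms and arrays used. An exact permutation test of 3 against 3 arrays cannot go below p = 0.1. The number of arrays limits the precision.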

Additional observations from a re-analysis of the deposited data

How the results depend on the processing

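With all arrays and quantile normalization, limma called 0 probe sets at an adjusted p of 0.05 in each comparison, and 610 (drug against model), 2245 (model against control) and 1345 (drug against control) had an unadjusted p under 0.05. For model against control the count was 1 with no normalization between arrays, 4 with array weights, 1 without control 1 and drug 1 together, and 0 to 1 when single arrays were left out, with 1 without control 1, model 1 or model 2. For drug against model it was 1 with only the groups compared, 1 without control 1 and drug 1 together, and 0 to 1 when single arrays were left out, with 1 without control 1. For drug against control it was 0 to 0. No chosen probe set of the 25 genes was among these calls. The median over the 25 genes ran from -0.84 to -0.05 (drug minus model), 0.24 to 0.72 (model minus control) and -0.48 to 0.60 (drug minus control) when single arrays were left out. It was -0.31 for model minus control with no normalization and -0.74 for drug minus control with array weights. Nsdhl, model minus control, was -0.11 with no normalization. The cause of these changes was not tested. Replicate numbers were not taken as pairs in the main fit. Deviations of same-numbered arrays correlated between -0.01 and 0.48, and not every pair was over 0.1. Those of replicate 1 correlated at 0.20 (model and control), 0.39 (drug and model) and 0.48 (drug and control). These values do not settle whether the arrays were paired. With the replicate number as a block, limma called 3 probe sets in model against control and 0 in the other comparisons, the unadjusted counts were 1082 (drug against model), 3633 (model against control) and 2235 (drug against control), and the medians over the 25 genes did not move.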
